A study of Homo sapiens and Mus musculus with 20 samples.

Results

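Chromatin accessibility at 10 genes of the YAP and TEAD pathway, YAP1, WWTR1, TEAD1, TEAD4, CCN1, CCN2, AMOTL2, ANKRD1, LATS2 and AJUBA, was examined in SW480 cells, an established human colorectal cancer line, after exposure to sodium propionate (NaPr) or sodium butyrate (NaBu). These are the sodium salts of short-chain fatty acids (SCFA) that gut bacteria release when they ferment dietary fiber. The assay was ATAC-seq, in which a transposase inserts adapters into open DNA, and each library is represented by its list of peaks on GRCh38. The NaPr experiment held 3 untreated (0 mM) and 3 treated (10 mM) libraries. A separate NaBu experiment held its own 3 untreated (0 mM) and 3 treated (1 mM) libraries. Treatment lasted 12 to 16 h. All 12 libraries came from the same cell line, with no other agent or genetic change named, so the findings concern a single cancer line.

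A region was a stretch covered by overlapping peaks in any of the 12 libraries, and it was assigned to a gene when it touched the gene body or the 20 kb on either side. This gave 273 regions at the 10 genes, out of 252173 regions in all. Of these, 202 had a peak in at least 2 of the 12 libraries, the condition for entering the ranking, out of 167303 overall. Assignment used position alone and no measured value. TEAD1 held 91 regions, WWTR1 37, LATS2 36, TEAD4 27, AMOTL2 23, YAP1 20, AJUBA 14, CCN1 11, ANKRD1 11 and CCN2 3. The 10 are among 20020 protein-coding genes in the annotation used.

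YAP1 and its paralog WWTR1 (also called TAZ) are transcriptional coactivators without a DNA-binding domain of their own. They reach chromatin through the TEAD factors, which recognise GGAATG-like sequences, often near sites for the AP-1 factors. The Hippo kinases, among them LATS2, phosphorylate the coactivators and keep them out of the nucleus. In the intestine the pathway is known for its part in regeneration of the epithelium and in colorectal cancer. CCN1, CCN2 and ANKRD1 are widely used as readouts of YAP activity, while AMOTL2 retains the coactivators in the cytoplasm and AJUBA restrains the LATS kinases.

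Both TEAD and AP-1 motifs were searched, because they are the sequences through which the coactivators are thought to act. The promoters of the 2 classical targets CCN2 and ANKRD1, of the coactivator YAP1 and of the kinase LATS2 are shown, each running from 250 bases before to 50 bases after the RefSeq start (GRCh38.p14). Capitals mark GGAATG or its reverse complement CATTCC (TEAD), and TGACTCA or its reverse complement TGAGTCA (AP-1). All 4 windows lie inside the accessible start region of their gene.
CCN2, chr6:131951323-131951622, minus strand: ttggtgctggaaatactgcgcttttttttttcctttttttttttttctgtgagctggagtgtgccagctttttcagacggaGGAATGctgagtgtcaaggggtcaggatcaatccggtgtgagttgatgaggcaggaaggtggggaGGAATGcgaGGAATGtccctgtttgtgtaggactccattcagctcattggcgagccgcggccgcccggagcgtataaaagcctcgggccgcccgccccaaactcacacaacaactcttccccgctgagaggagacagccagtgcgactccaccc
ANKRD1, chr10:90921038-90921337, minus strand: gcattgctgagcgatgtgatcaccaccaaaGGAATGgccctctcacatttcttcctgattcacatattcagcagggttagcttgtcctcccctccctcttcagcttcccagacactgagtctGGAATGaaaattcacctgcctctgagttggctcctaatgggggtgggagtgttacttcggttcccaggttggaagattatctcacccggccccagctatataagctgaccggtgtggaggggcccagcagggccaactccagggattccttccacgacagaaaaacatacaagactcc
YAP1, chr11:102110197-102110496, plus strand: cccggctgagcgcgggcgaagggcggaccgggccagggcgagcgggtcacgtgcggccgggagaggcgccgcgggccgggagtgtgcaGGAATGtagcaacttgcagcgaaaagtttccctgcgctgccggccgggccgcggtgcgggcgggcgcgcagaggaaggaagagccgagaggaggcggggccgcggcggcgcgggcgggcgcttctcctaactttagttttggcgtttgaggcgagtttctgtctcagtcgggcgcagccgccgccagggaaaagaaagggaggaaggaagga
LATS2, chr13:21061537-21061836, minus strand: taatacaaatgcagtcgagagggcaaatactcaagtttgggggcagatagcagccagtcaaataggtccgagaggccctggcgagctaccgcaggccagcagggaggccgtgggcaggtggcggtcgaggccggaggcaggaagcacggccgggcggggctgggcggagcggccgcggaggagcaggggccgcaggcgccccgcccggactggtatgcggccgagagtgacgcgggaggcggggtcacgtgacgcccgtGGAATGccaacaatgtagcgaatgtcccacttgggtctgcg
The CCN2 window held the TEAD sequence 3 times, the ANKRD1 window 2 times, and the YAP1 and LATS2 windows held 1 match each. No AP-1 sequence was found in these 4 windows. The 200 bp around the strongest summit of the YAP1 start region held an AP-1 sequence, outside the promoter window, and no TEAD sequence. For comparison, 14.0% of 35116 RefSeq promoters of the same length held at least 1 TEAD sequence and 4.95% held an AP-1 sequence. Promoters could be matched for 7 of the 10 genes, with 10 windows in all. The 4 shown were chosen after their matches had been seen. Of the other 6, 2 each at AMOTL2, WWTR1 and AJUBA, 1 AMOTL2 and 1 AJUBA window held 1 TEAD sequence and none held an AP-1 sequence.

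The second set of sequences comes from 5 of the regions whose accessibility changed in both experiments, described in full further on. Each is the 200 bp around the strongest summit, in GRCh38, with the same motifs in capitals. The 2 WWTR1 regions shown rose, and TEAD1 at +50 kb and +142 kb fell, with distances counted from the gene start.
WWTR1 at +160 kb, chr3:149576266-149576465, plus strand: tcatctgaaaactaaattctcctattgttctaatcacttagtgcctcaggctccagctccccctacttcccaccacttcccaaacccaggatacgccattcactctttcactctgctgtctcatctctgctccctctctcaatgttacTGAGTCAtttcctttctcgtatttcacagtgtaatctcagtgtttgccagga
WWTR1 at +90.4 kb, chr3:149646225-149646424, plus strand: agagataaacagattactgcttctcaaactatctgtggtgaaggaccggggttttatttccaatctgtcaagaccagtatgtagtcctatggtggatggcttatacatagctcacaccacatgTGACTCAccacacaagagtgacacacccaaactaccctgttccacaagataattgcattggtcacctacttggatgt
TEAD1 at +50 kb, chr11:12724342-12724541, plus strand: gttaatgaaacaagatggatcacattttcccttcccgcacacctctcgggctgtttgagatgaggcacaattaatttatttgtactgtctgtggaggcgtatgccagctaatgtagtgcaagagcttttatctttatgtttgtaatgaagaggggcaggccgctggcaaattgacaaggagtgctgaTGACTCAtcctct
TEAD1 at +142 kb, chr11:12815971-12816170, plus strand: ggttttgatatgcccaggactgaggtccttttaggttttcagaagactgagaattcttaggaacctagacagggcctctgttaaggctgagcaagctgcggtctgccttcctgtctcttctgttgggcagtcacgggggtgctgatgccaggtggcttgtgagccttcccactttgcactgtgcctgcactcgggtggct
TEAD1 at +228 kb, a region that rose, chr11:12902081-12902280, plus strand: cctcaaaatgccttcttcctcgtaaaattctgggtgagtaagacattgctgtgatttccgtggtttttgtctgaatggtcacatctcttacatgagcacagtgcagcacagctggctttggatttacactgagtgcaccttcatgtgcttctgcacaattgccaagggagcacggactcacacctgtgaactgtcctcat
The 2 WWTR1 regions shown and the falling TEAD1 region at +50 kb each held 1 AP-1 sequence. None of these 5 windows held the TEAD sequence, and the 2 TEAD1 regions with listed peaks in only 1 arm held neither. Among regions called in both experiments and not shown, the rising LATS2 region chr13:21017372-21017921 held an AP-1 sequence. The rising regions chr3:149677788-149679070 (WWTR1) and chr13:21033259-21034803 (LATS2), the falling TEAD1 region chr11:12746518-12747263 and the TEAD4 region chr12:3033679-3034608 held neither in the 200 bp around the strongest summit.

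For every library the regions were ranked by the −log10 p of their strongest peak, and each region was given a percentile, the percent of ranked regions with a lower value in that library. A region without a peak was set to 0. The weakest listed −log10 p was 3.37 to 6.53 in libraries of the NaPr experiment and 7.25 to 9.38 in those of the NaBu experiment. A region without a listed peak may therefore hold signal weaker than the end of that list. Because 35.8% to 44.6% of ranked regions had no peak in a given library, the weakest called peak already stood at a percentile of 35.8 to 44.6, so a gained or lost peak moves a region by a large step whose size is not itself a measure of DNA opening. Treated and untreated libraries were compared with limma, and a region was called when its adjusted p over all tested SW480 regions was below 0.05. Where no library of an arm had a peak, that arm was 0 throughout and had no spread. The adjusted p of such a region therefore depends on where the lists end and does not measure how far DNA opening changed. Peak lists do not give the number of reads, but the lowest background at a peak summit ranged from 0.936 to 3.03 tags between libraries, and 108442 to 144398 separate peak intervals were listed per library. Start regions of 6 of 8 colon epithelial markers, EPCAM among them, had a peak in all 12 libraries, whereas KRT20 had one in 3 and LGALS4 in 8. Of 7 markers of blood, endothelium, fibroblasts and smooth muscle, 4 had no peak in any library, PECAM1 had one in 2, MYH11 in 10 and COL1A1 in 12. As cells were measured in bulk, fewer cells with an open region and less opening per cell cannot be told apart.

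With NaPr, 153 regions of the 10 genes had a peak in at least 2 of the 6 libraries and were tested, and accessibility rose at 9 and fell at 10. The called share was 12.4%, against 9.1% of all 124067 regions tested (5.03% higher, 4.07% lower). The rises were at WWTR1 (3), ANKRD1 (2), LATS2 (2), CCN1 (1) and TEAD1 (1), and the falls at TEAD1 (4), WWTR1 (2), TEAD4 (2), AMOTL2 (1) and LATS2 (1). No region of YAP1, CCN2 or AJUBA was called by limma on rank, where 2 of 9, 0 of 1 and 1 of 9 had an unadjusted p below 0.05. The median change was -2.09 percentile points at the 10 genes and 0.03 over all regions. These calls lay close to the threshold. Without untreated replicate 2 no region of the 10 genes, and none in the genome, was called by limma, although 38 of 146 had an unadjusted p below 0.05 (43 of 153 with it) and the lowest adjusted p over all regions was 0.0521. With any other library left out, that lowest value was 0.033 to 0.0485. With the replicate number added to the model as a block it was 0.106, and no region was called. On tag numbers at the summit scaled by each library's background, the split was 15 higher and 1 lower among 77 regions with a peak in all 6 libraries. Over all 65178 such regions, 8812 were higher and 718 lower. The median of all regions moved by 0.21 (log2) on that scale. Centred on that median, the split at the 10 genes was 17 higher and 19 lower, and over all such regions 12.2% were higher and 19.9% lower. The centred calls included 3 higher and 1 lower region at YAP1 (0.61 to 0.83, and -0.52 log2 units) and 2 lower regions at AJUBA (-0.72 and -0.66).

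With NaBu, accessibility rose at 26 and fell at 27 of 140 tested regions of the pathway genes. This was 37.9% of the regions, against 31.7% of 123730 regions overall (17.2% higher, 14.5% lower). TEAD1 held the largest number of called regions, with 6 higher and 15 lower of 56. YAP1 had 6 higher and 1 lower of 17, TEAD4 4 and 2 of 10, WWTR1 3 and 0 of 15, LATS2 3 and 1 of 7, AMOTL2 2 and 3 of 12, and AJUBA 2 and 5 of 13. None of the 10 regions tested at the targets CCN1, CCN2 and ANKRD1 was called by limma on rank, and 2 of them had an unadjusted p below 0.05. The median change was -1.29 percentile points, against 0.57 over all regions. On tag numbers scaled by background the split was 15 higher and 32 lower of 75 regions with a peak in all 6 libraries. Over all 72559 such regions, 17420 were higher and 20897 lower. Centred on the median region, the split at the 10 genes was 15 higher and 31 lower, and over all such regions 24.4% were higher and 28.6% lower. The centred calls at the 10 genes included 3 regions of the targets. These were lower at chr1:85576330-85577563 upstream of CCN1 (-0.49, adjusted p = 0.0102) and at the CCN1 start, and higher at chr6:131958959-131959357 upstream of CCN2 (0.57, adjusted p = 0.0169). The doses of the 2 acids differed, so their effects are given side by side and were not tested against each other.

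**Figure D1:**
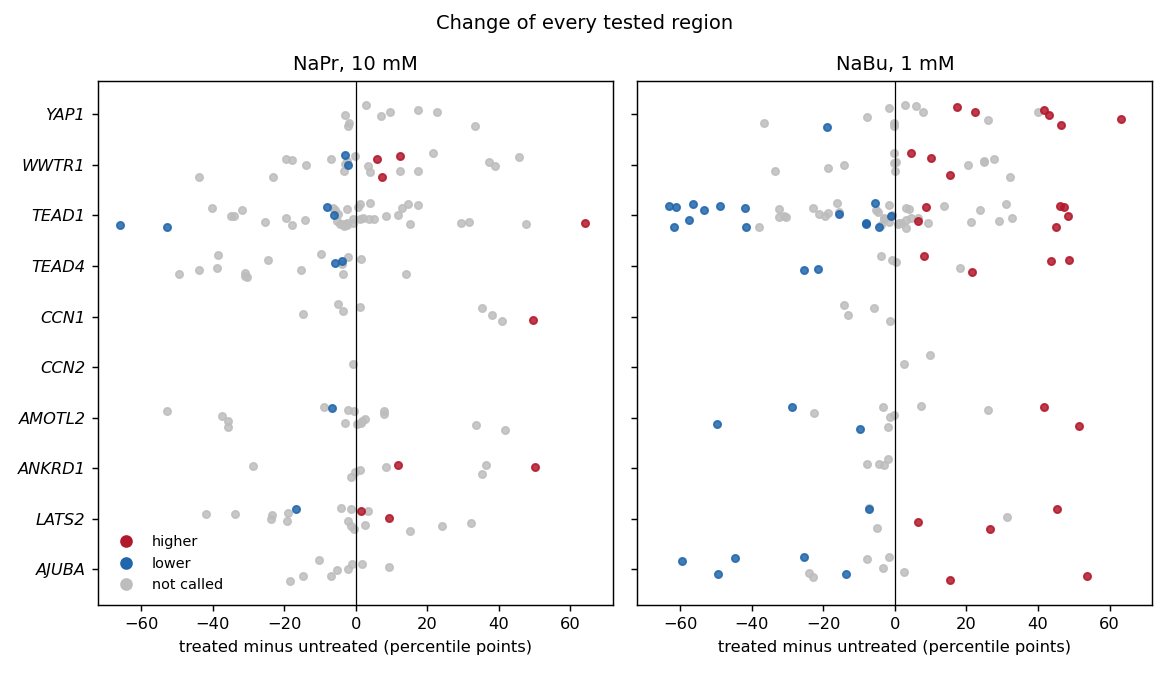
Change in percentile rank (treated minus untreated, x axis) of every tested region, by gene (y axis), in the NaPr experiment (left, 153 regions) and the NaBu experiment (right, 140 regions). Red and blue points are called higher and lower by limma (9 and 10 with NaPr, 26 and 27 with NaBu), and grey points are not called. Points are spread vertically within a gene for visibility.

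Regions near the starts of protein-coding genes (within 1 kb) and regions elsewhere were counted separately. With NaPr, 1 of 27 such regions at the pathway genes rose and 3 fell, while 8 of 126 regions away from starts rose and 7 fell. With NaBu, 2 of 30 near starts rose and 6 fell, and 24 of 110 elsewhere rose and 21 fell. Over all regions near starts, 629 of 24659 rose and 1827 fell with NaPr, and 2445 of 25958 rose and 5772 fell with NaBu. Away from starts, 5612 of 99408 rose and 3218 fell with NaPr, and 18817 of 97772 rose and 12181 fell with NaBu. The called share near starts was 14.8% with NaPr and 26.7% with NaBu at the pathway genes, against 9.96% and 31.7% of all such regions. Away from starts it was 11.9% and 40.9%, against 8.88% and 31.7%. The difference between the 2 classes of region was not tested.

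Peaks entered or left the lists at a minority of sites. With NaPr, 3 regions gained a peak (listed in each treated library and in none of the untreated ones) and 2 lost it. The corresponding shares over all tested regions were 2.95% and 1.5%. With NaBu, 11 regions were gained and 8 lost, against 6.41% and 3.72% over all tested regions. The number of regions with a peak at the 10 genes did not separate treated from untreated libraries. It was 139, 125 and 127 in untreated and 132, 125 and 122 in NaPr-treated libraries (exact permutation test, two-sided, p = 0.6), and 106, 119 and 122 against 112, 119 and 121 with NaBu (exact p = 0.9).

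A total of 10 regions were called in both experiments, which shared no libraries. This was 10.6% of the 94 regions tested in both. Counting only calls among these 94, it was 66.7% of those called with NaPr and 28.6% of those called with NaBu. Over the genome, 5.59% of the 83651 regions tested in both were called in both. Among these 83651, that was 55.3% of the regions called with NaPr and 17.4% of those called with NaBu. Regions tested in only 1 experiment are left out of these shares. Of the 10, accessibility rose in both experiments at 6, fell in both at 3, and moved in opposite directions at 1. The regions that rose were 3 in WWTR1, 2 in LATS2 and 1 in TEAD1, and those that fell were all in TEAD1. The region with opposite changes was in TEAD4. None of the 10 was a start region.

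**Figure D2:**
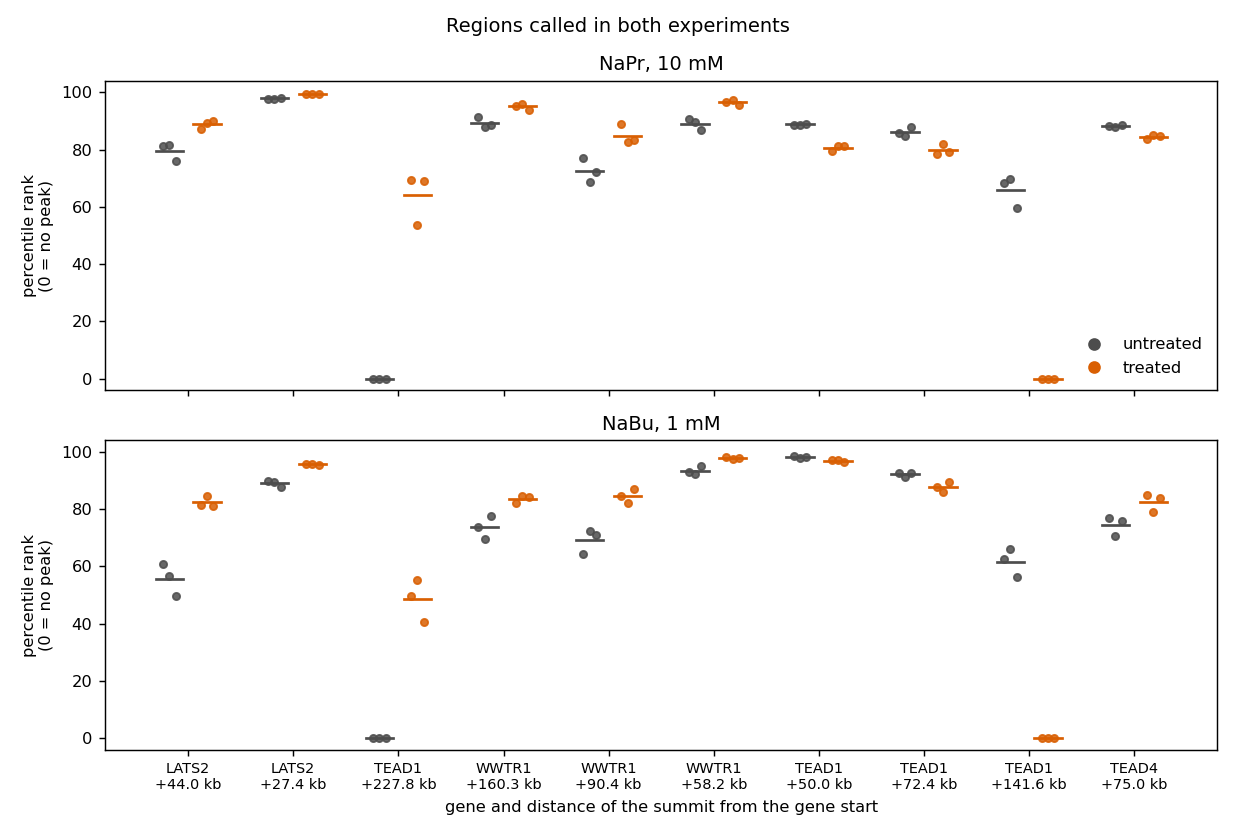
Percentile rank (y axis, 0 where no peak was called) of the 10 regions called in both experiments, in each library of the NaPr (top) and NaBu (bottom) experiments. Points are libraries, bars are means of 3, and the x axis names the gene and the distance of the summit from its start. The TEAD1 region at +227.8 kb had peaks in treated libraries only, that at +141.6 kb in untreated libraries only, and the TEAD4 region at +75.0 kb fell with NaPr and rose with NaBu.

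YAP1 (ENSG00000137693.14, chr11:102110447-102233424, plus strand) was highly accessible at its start. The start region, chr11:102109858-102112672, which overlaps the first exon, stood at percentiles of 93.2, 92.0 and 94.7 in untreated and 92.1, 90.9 and 87.8 in NaPr-treated libraries. In the NaBu experiment it stood at 97.9, 99.0 and 98.6 untreated and 97.2, 98.4 and 98.8 treated. The groups overlapped in both experiments, and neither change was called (-3.01 ± 1.23 (SE) percentile points, adjusted p = 0.196, with NaPr; -0.35 ± 0.49, adjusted p = 0.597, with NaBu).

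Inside YAP1 and downstream of it, intronic and flanking regions rose with NaBu. Peaks at an intronic region 17.3 kb from the start, chr11:102127518-102127900, were absent from the 3 untreated libraries and stood at 68.6, 62.2 and 59.1 in the treated ones (adjusted p = 0.000792). The same region had no peak in untreated libraries of the NaPr experiment and reached 58.1, 42.1 and 0 with NaPr, where the groups overlapped at 0 and it was not called (adjusted p = 0.248). A second intronic region, chr11:102225626-102226540, held a TEAD sequence and rose from 56.7, 42.9 and 48.2 to 68.6, 76.0 and 70.4 with NaBu (22.4 ± 4.55 (SE) points, adjusted p = 0.0122). Downstream, chr11:102244405-102245532, which held both a TEAD and an AP-1 sequence, rose from 60.6, 56.6 and 58.1 to 70.1, 80.9 and 76.6 (17.5 ± 3.4 points, adjusted p = 0.0102). At these 2 regions, which were singled out after their values had been seen, the highest untreated library was below the lowest treated one. With NaPr neither was called on rank, while centred tags rose by 0.83 ± 0.25 (adjusted p = 0.00856) and 0.61 ± 0.23 log2 units (adjusted p = 0.0345). Next to the start region, the narrow intronic region chr11:102112783-102112895 fell from 59.5, 75.8 and 66.9 to 46.0, 46.7 and 52.4 (adjusted p = 0.0323), and its call was lost under 8 of 18 alternative settings (adjusted p up to 0.0903). On centred tags it fell by 0.86 log2 units (adjusted p = 9.38e-05). The number of YAP1 regions with a peak was 10, 10 and 12 in untreated and 14, 15 and 16 in NaBu-treated libraries, without overlap (exact permutation p = 0.1, the smallest that 3 against 3 libraries allow). Over the genome the number was also higher in every treated library, 108287, 111016 and 109560 against 96813, 102797 and 101197 (exact permutation p = 0.1).

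WWTR1 (ENSG00000018408.15, chr3:149517235-149736714, minus strand) gave a weak signal over the start of its gene record. That region, chr3:149736108-149736848, had a peak in 1 untreated library of the NaPr experiment (69.1) and in all 3 treated ones (67.8, 53.6 and 64.6). In the NaBu experiment no untreated library and 2 treated ones had a peak (47.7 and 48.7). Neither change was called (adjusted p = 0.248 and 0.136). The strong promoter-like region lay 78.5 kb into the gene at chr3:149657428-149659158, over the start of another WWTR1 transcript and of the antisense gene WWTR1-AS1. It stood at 98.7, 98.9 and 98.4 in untreated libraries and fell to 95.4, 97.3 and 96.3 with NaPr (-2.32 ± 0.55 (SE) points, adjusted p = 0.0435). With NaBu it stayed within the untreated range, at 88.2, 87.9 and 88.4 against 89.8, 87.3 and 88.6 (adjusted p = 0.726).

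Within the WWTR1 gene body, 3 regions rose with both acids. The largest of these rises was at the intronic region chr3:149646176-149646797. It went from 77.0, 68.7 and 72.2 to 88.8, 82.6 and 83.3 with NaPr (12.2 ± 2.78 (SE) points, adjusted p = 0.0402), and from 64.3, 72.3 and 70.8 to 84.6, 82.1 and 87.0 with NaBu (15.4 ± 2.58 points, adjusted p = 0.00544). Its NaPr call was lost under 8 of 19 alternative settings (adjusted p up to 0.134), and its NaBu call under 0 of 19. At chr3:149575476-149576670, which overlaps an exon, the change was 5.81 ± 1.04 points with NaPr (adjusted p = 0.0274) and 9.96 ± 2.23 points with NaBu (adjusted p = 0.0175). Both of these regions carry the AP-1 sequence printed above. At the intronic region chr3:149677788-149679070, untreated libraries at 90.6, 89.7 and 87.1 compared with 96.7, 97.2 and 95.8 after NaPr (7.4 ± 0.99 points, adjusted p = 0.0187), and the NaBu change was 4.41 ± 0.73 points (adjusted p = 0.00529). Treated and untreated libraries did not overlap at any of the 3 regions in either experiment. As these regions were picked because they were called in both, the lack of overlap is not separate evidence. Upstream of WWTR1, chr3:149752007-149753116 covers the start of COMMD2 and fell by 2.91 ± 0.39 points with NaPr (adjusted p = 0.0188). That call was lost under 5 of 19 alternative settings (adjusted p up to 0.266).

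TEAD1 (ENSG00000187079.20, chr11:12674421-12944737, plus strand), a DNA-binding partner of both coactivators, changed in both directions along its long gene body. Its start region, chr11:12673803-12675297, was not called. It stood at 96.6, 95.5 and 94.9 untreated and 94.1, 96.3 and 94.0 with NaPr (adjusted p = 0.527), and at 83.9, 80.1 and 74.9 untreated and 81.1, 70.4 and 71.2 with NaBu (adjusted p = 0.282). A total of 3 intronic regions fell in both experiments. At chr11:12723822-12725161 the untreated libraries of the NaPr experiment stood at 88.8, 88.8 and 89.0 and the treated ones at 79.4, 81.2 and 81.3 (-8.18 ± 1.1 (SE) points, adjusted p = 0.0188). With NaBu the fall there was small, from 98.6, 97.8 and 98.1 to 97.0, 97.3 and 96.6 (-1.19 ± 0.34 points, adjusted p = 0.0432). At chr11:12746518-12747263 the changes were -6.13 ± 1.52 points (adjusted p = 0.0492) and -4.44 ± 0.96 points (adjusted p = 0.0153).

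In TEAD1, 2 regions had a listed peak in every library of one arm and in none of the other, in both experiments. Signal weaker than the end of a list is not seen there, so their adjusted p depends on where the lists end. Tags were not compared at these 2 regions. With NaPr each of the 2 lost its call under 3 of 16 alternative settings (adjusted p up to 0.106). The intronic region chr11:12816000-12816379 stood at 68.5, 69.7 and 59.8 in untreated libraries and had no peak in any NaPr-treated library (adjusted p = 0.0252). In the NaBu experiment it went from 62.7, 65.9 and 56.4 to no peak in all 3 (adjusted p = 0.000833). At chr11:12901837-12902359, which overlaps an exon, no untreated library of either experiment had a peak, and the treated ones stood at 69.5, 53.6 and 69.2 with NaPr (adjusted p = 0.0277) and at 49.6, 55.3 and 40.5 with NaBu (adjusted p = 0.00231). With NaBu the strong peak at chr11:12761688-12763168 fell from 89.5, 91.2 and 92.1 to 46.3, 49.7 and 52.3 (-41.5 ± 2.34 (SE) points, adjusted p = 0.000704), and the change in centred tags was -2.60 ± 0.15 log2 units (adjusted p = 1.98e-10). In the NaPr experiment this region had peaks in 2 untreated libraries (52.7 and 51.9) and in no treated one (adjusted p = 0.248). The peak at chr11:12854168-12855165 went from 63.2, 66.9 and 59.4 to none with NaBu (adjusted p = 0.000775), at a site with no peak in the NaPr experiment. Regions with a peak in TEAD1 numbered 43, 52 and 50 untreated and 40, 41 and 42 with NaBu (exact permutation p = 0.1), but 34, 36 and 33 against 38, 33 and 31 with NaPr (exact permutation p = 1).

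**Figure D3:**
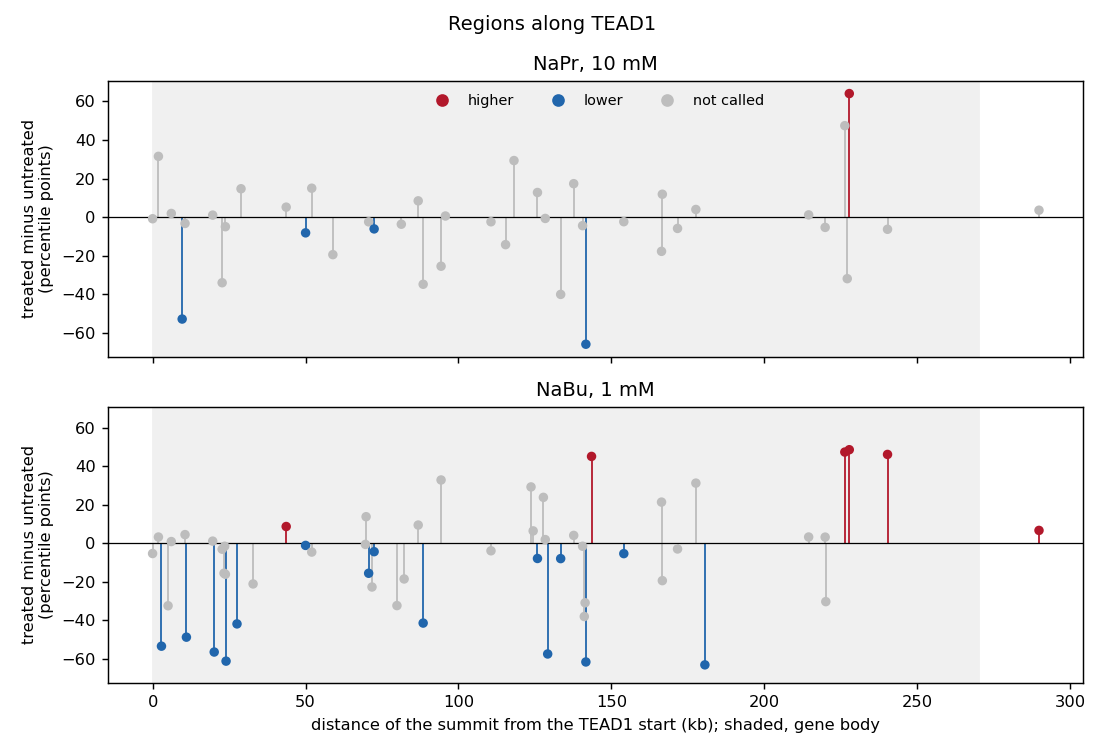
Change in percentile rank (y axis) of each tested TEAD1 region against the distance of its summit from the TEAD1 start in kb (x axis), with NaPr (top, 41 regions) and NaBu (bottom, 56 regions). The shaded span is the gene body, red and blue mark regions called higher and lower, and grey those not called. With NaBu 6 of the 56 regions were called higher and 15 lower, against 17.2% and 14.5% of all regions tested.

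TEAD4 (ENSG00000197905.10, chr12:2959330-3040676, plus strand) had a start region that fell in rank with NaPr. The start region, chr12:2958371-2960976, stood at 94.0, 95.5 and 94.3 untreated and at 89.2, 90.2 and 87.0 treated, without overlap (-5.84 ± 0.96 (SE) points, adjusted p = 0.0242). This call was lost under 5 of 19 alternative settings (adjusted p up to 0.271). With NaBu the start region went from 90.4, 92.6 and 92.4 to 90.7, 86.3 and 86.6, where the groups overlapped and no call was made (-3.91 ± 1.35 points, adjusted p = 0.0731). Fewer TEAD4 regions had a peak after NaPr, 10, 10 and 9 against 17, 16 and 17 (exact permutation p = 0.1), whereas with NaBu there were 10, 11 and 10 against 9, 7 and 11 (exact permutation p = 0.5).

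Other TEAD4 regions were called with NaBu, and 1 of them was also called with NaPr, in the opposite direction. The intronic region chr12:2998584-2999626, with a TEAD and an AP-1 sequence, stood at 65.4, 47.6 and 60.3 untreated and at 0, 41.3 and 0 with NaPr, which was not called (adjusted p = 0.128). With NaBu it was absent from untreated libraries and stood at 47.2, 47.7 and 50.8 in treated ones (adjusted p = 0.00148). At chr12:3033679-3034608 the change was -3.81 ± 0.95 (SE) points with NaPr (adjusted p = 0.0498) and 8.14 ± 2.4 points with NaBu (adjusted p = 0.0459), both close to the threshold. Just upstream of the start, the narrow region chr12:2958167-2958258 fell from 76.9, 76.0 and 74.7 to 51.1, 55.3 and 45.3 with NaBu (adjusted p = 0.00235).

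The target genes CCN1 (ENSG00000142871.18, chr1:85580761-85584589, plus strand), CCN2 (ENSG00000118523.6, chr6:131948176-131951372, minus strand) and ANKRD1 (ENSG00000148677.7, chr10:90912096-90921087, minus strand) were accessible at their starts in every library. CCN1 and CCN2 encode secreted matricellular proteins and ANKRD1 a nuclear ankyrin-repeat protein. Their start regions were not called on rank with either acid, although ranking by fold enrichment in place of the p-value called the ANKRD1 start lower with both (adjusted p = 0.0405 with NaPr and 0.0217 with NaBu). CCN2, at chr6:131949948-131951891, stood at 93.0, 89.9 and 88.7 untreated and 89.2, 88.7 and 91.4 with NaPr (adjusted p = 0.75). With NaBu it went from 84.9, 85.3 and 84.6 to 85.9, 87.0 and 89.5, a rise of 2.54 ± 1.05 (SE) points in which the groups did not overlap but the test did not pass (adjusted p = 0.119). ANKRD1, at chr10:90920966-90922097, stood at 95.7, 95.2 and 94.9 untreated and 95.8, 95.4 and 93.7 with NaPr (adjusted p = 0.832). With NaBu ANKRD1 moved from 90.1, 88.8 and 89.2 to 88.0, 87.7 and 86.4, again without overlap and without a call (adjusted p = 0.0755). The CCN1 start, at chr1:85580107-85581534, changed by -3.65 ± 1.52 points with NaPr (adjusted p = 0.204) and by -1.47 ± 0.95 points with NaBu (adjusted p = 0.254). On tag numbers at the summit, centred on the median region, the CCN1 start fell with NaBu (-0.27 ± 0.10 log2 units, adjusted p = 0.0281) and was not called with NaPr (-0.26 ± 0.12, adjusted p = 0.101).

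At CCN1 and ANKRD1, 3 regions away from the start rose in rank with NaPr. At ANKRD1, chr10:90911191-90913682, which spans the end of the gene, went from 78.4, 84.8 and 85.5 to 94.6, 94.6 and 94.8 (11.8 ± 1.8 (SE) points, adjusted p = 0.0225). The neighbouring intronic region chr10:90913872-90914124 gained a peak, from none to 55.3, 52.7 and 41.9 (adjusted p = 0.0433). With NaBu the first of these went from 79.2, 83.9 and 82.1 to 79.9, 77.8 and 74.3 (adjusted p = 0.136), and the second had no peak in any library. The centred tags of the first rose by 1.81 ± 0.13 log2 units with NaPr (adjusted p = 3.74e-16). With NaBu their change had the opposite sign to that of the rank (0.33 ± 0.14 log2 units, adjusted p = 0.0511) and was not called either. At CCN1, chr1:85584242-85584824, at the end of the gene and with a TEAD sequence, gained a peak with NaPr, from none to 42.1, 51.2 and 55.6 (adjusted p = 0.0437), and had none in the NaBu experiment. The gains at CCN1 and ANKRD1 each lost their call under 7 of 16 alternative settings (adjusted p up to 0.235).

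AMOTL2 (ENSG00000114019.15, chr3:134355347-134375479, minus strand) had the highest mean rank of the 10 start regions in untreated libraries of the NaPr experiment. The region, chr3:134374015-134375639, stood at 96.9, 97.6 and 97.8 untreated and 97.5, 95.8 and 97.5 treated (adjusted p = 0.644), and at 97.4, 97.4 and 97.0 against 97.1, 94.0 and 94.8 with NaBu (adjusted p = 0.116). Nearer the end of the gene, chr3:134357623-134358832 fell from 97.7, 95.7 and 95.1 to 89.9, 90.0 and 89.0 with NaPr (-6.54 ± 0.80 (SE) points, adjusted p = 0.0166) and showed no call with NaBu (-0.21 ± 1.12 points, adjusted p = 0.914). Its NaPr call was lost under 5 of 19 alternative settings (adjusted p up to 0.214). With NaBu, the exonic region chr3:134373251-134373916 beside the start fell from 90.2, 89.4 and 90.5 to 83.5, 80.6 and 76.4 (adjusted p = 0.00812). The corresponding NaPr values, 76.4, 62.3 and 71.4 against 0, 51.4 and 0, did not pass (adjusted p = 0.0856). Downstream, chr3:134350715-134351644, with an AP-1 sequence, gained a peak with NaBu, from none to 50.6, 56.2 and 48.0 (adjusted p = 0.00135), and upstream, chr3:134377144-134377295 lost one, from 45.6, 57.8 and 45.7 to none (adjusted p = 0.00199).

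LATS2 (ENSG00000150457.9, chr13:20973036-21061586, minus strand), a kinase that inactivates YAP1 and WWTR1 and is itself a known YAP target, had a start region that was called lower in rank with NaBu. It stood at 92.1, 89.6 and 89.3 untreated and at 85.5, 80.5 and 83.1 treated (chr13:21060202-21062109, -7.32 ± 1.5 (SE) points, adjusted p = 0.0125), without overlap. With NaPr the same region stood at 95.6, 97.2 and 97.9 untreated and 96.6, 96.5 and 96.0 treated (adjusted p = 0.657). Inside the gene, 2 intronic regions rose in both experiments. The region chr13:21017372-21017921 rose from 81.3, 81.6 and 76.1 to 87.4, 89.3 and 90.1 with NaPr (9.29 ± 1.77 points, adjusted p = 0.0302), and from 60.8, 56.6 and 49.8 to 81.5, 84.5 and 81.2 with NaBu (26.6 ± 3.31 points, adjusted p = 0.00185). Its NaPr call was lost under 6 of 19 alternative settings (adjusted p up to 0.113). The region chr13:21033259-21034803, among the strongest peaks of these cells, moved from 97.9, 97.9 and 98.2 to 99.4, 99.4 and 99.5 with NaPr (adjusted p = 0.0394) and from 90.0, 89.4 and 87.8 to 95.6, 95.8 and 95.5 with NaBu (adjusted p = 0.00102). Upstream, chr13:21070910-21071878 fell from 86.0, 82.1 and 84.1 to 64.0, 68.5 and 69.9 with NaPr (-16.6 ± 2.48 points, adjusted p = 0.022), and chr13:21079619-21080306 gained a peak with NaBu, from none to 49.6, 42.8 and 43.9 (adjusted p = 0.00206). The second of these upstream regions had peaks in all 6 libraries of the NaPr experiment, between 59.8 and 77.4, and was not called there (adjusted p = 0.622).

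AJUBA (ENSG00000129474.17, chr14:22971177-22982551, minus strand), a LIM-domain adaptor, had, in untreated libraries, a lower mean rank at its start than the other members apart from WWTR1. The region, chr14:22982219-22983236, stood at 63.2, 80.7 and 71.9 untreated and 60.7, 63.4 and 61.1 with NaPr (adjusted p = 0.248), and at 80.0, 75.8 and 71.3 against 78.9, 75.8 and 80.3 with NaBu (adjusted p = 0.452). Within the gene body, several regions fell with NaBu. The exonic region chr14:22977564-22978471, with a TEAD sequence, fell from 83.8, 82.7 and 85.3 to 70.2, 69.5 and 71.1 (-13.7 ± 1.38 (SE) points, adjusted p = 0.0011), without overlap, and the NaPr values there, 65.1, 79.1 and 71.5 against 75.0, 75.6 and 70.5, overlapped (adjusted p = 0.833). The narrow neighbour chr14:22978767-22978839 lost its peak, from 59.5, 60.1 and 58.5 to none (adjusted p = 0.000792). The intronic region chr14:22973651-22974023 gained one, from none to 62.1, 42.1 and 56.9 (adjusted p = 0.00227). Regions with a peak at AJUBA numbered 12, 12 and 13 untreated and 9, 10 and 10 with NaBu (exact permutation p = 0.1).

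**Figure D4:**
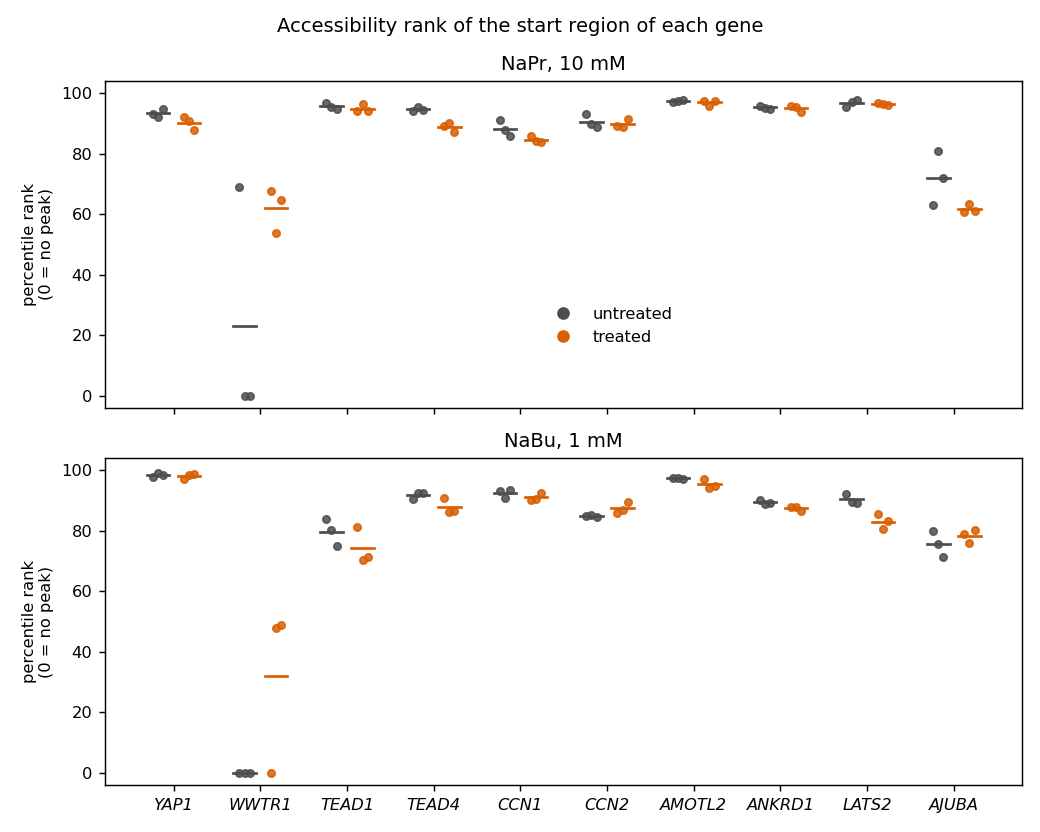
Percentile rank (y axis, 0 where no peak was called) of the start region of each gene in the 6 libraries of the NaPr experiment (top) and the 6 of the NaBu experiment (bottom). Points are libraries and bars are means of 3. All start regions except those of WWTR1 and AJUBA stood above 70 in every library, and treated and untreated libraries were called different in rank only at TEAD4 with NaPr and at LATS2 with NaBu.

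In untreated libraries of the NaPr experiment the mean rank of the start regions increased from WWTR1 (23.0 ± 39.9 (SD, n = 3)) through AJUBA (71.9 ± 8.78), CCN1 (88.3 ± 2.71), CCN2 (90.5 ± 2.19), YAP1 (93.3 ± 1.32), TEAD4 (94.6 ± 0.78), ANKRD1 (95.3 ± 0.45), TEAD1 (95.7 ± 0.87) and LATS2 (96.9 ± 1.19) to AMOTL2 (97.4 ± 0.43). From CCN1 upward, the range of the 3 libraries of each gene overlapped that of the next, and the AJUBA and CCN1 ranges did not overlap. In the NaBu experiment the untreated means ran from 0 at WWTR1 to 98.5 ± 0.54 at YAP1, and TEAD1 stood lower in the order, at 79.6 ± 4.53.

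Since ranks near 100 leave little room for a change, the number of tags at the summit, which the listed fold enrichment and p-value determine, was compared as well. Centring on the median region and counting start regions on this scale were chosen after the data had been seen. At the TEAD4 start, 112, 226 and 244 tags were counted in untreated and 70, 99 and 138 in NaPr-treated libraries, before any correction for depth. Relative to the median region of each library, this was a change of -0.80 ± 0.11 (SE) log2 units (adjusted p = 7.78e-08). On this scale the start regions of YAP1, TEAD1, TEAD4, AMOTL2, LATS2 and AJUBA fell with NaPr, 6 of the 9 that had a peak in all 6 libraries, and the same genes and CCN1 fell with NaBu, 7 of 9. The largest fall with NaBu was at LATS2, from 231, 128 and 139 tags to 99, 77 and 84 (-0.84 ± 0.14, adjusted p = 5.38e-05). YAP1 went from 547, 417 and 450 tags to 302, 352 and 375 (-0.40 ± 0.08, adjusted p = 0.00047). CCN2 and ANKRD1 were not called (CCN2 -0.04 ± 0.13 with NaPr and 0.21 ± 0.12 with NaBu, adjusted p = 0.845 and 0.144; ANKRD1 0.12 ± 0.11 and -0.15 ± 0.11, adjusted p = 0.423 and 0.261).

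Falling tag numbers at starts were common across the genome on this scale. Of regions near coding starts with a peak in all 6 libraries, 38.1% of 18740 were called lower with NaPr and 51.0% of 19295 with NaBu, while over all such regions, near starts or not, 19.9% were lower and 12.2% higher with NaPr, and 28.6% lower and 24.4% higher with NaBu. The median change of the start regions was -0.28 with NaPr and -0.40 with NaBu, against -0.24 and -0.28 over all regions near coding starts. Scaled by background in place of the median region, 0 of 9 start regions passed limma with NaPr, with negative values at the 6 genes, from -0.54 at TEAD4 to -0.03 at TEAD1 and LATS2, and 7 of 9 passed with NaBu. At AJUBA the tag number fell with NaBu (-0.33 ± 0.12, adjusted p = 0.0282) although its rank did not. Without untreated replicate 2 or treated replicate 3, 3 of 9 were lower with NaPr, and without untreated replicate 1, 4 of 9 with NaBu.

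**Figure D5:**
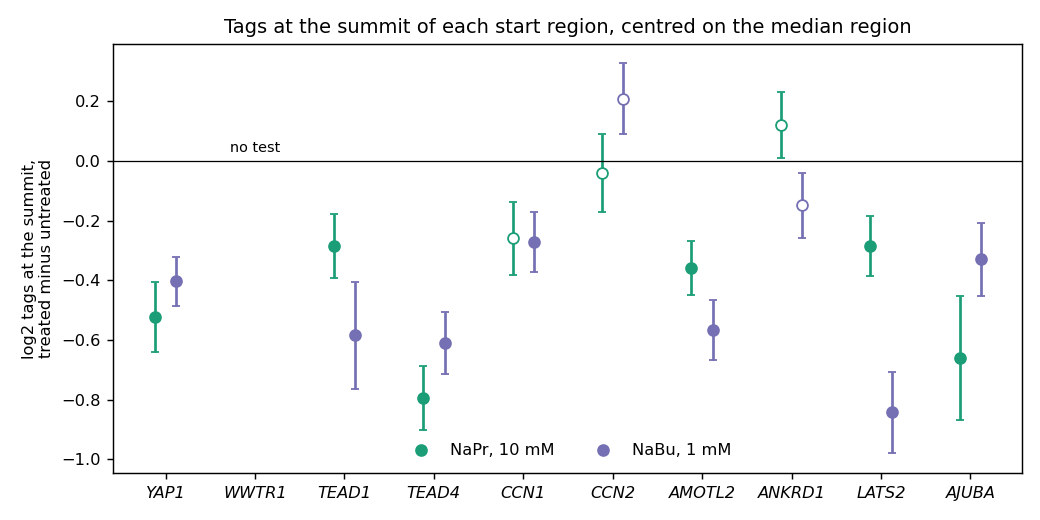
Change in log2 tags at the summit of each start region (y axis, treated minus untreated, after centring each library on its median region), by gene (x axis), with NaPr in green and NaBu in purple. Points are limma estimates, bars are SE, and filled points have an adjusted p below 0.05 (6 of 9 with NaPr, 7 of 9 with NaBu). WWTR1 has no test, since its start region lacked a peak in some libraries.

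Motifs were counted only in the 200 bp around the strongest summit of each region. TEAD sequences were found there in 41 of the 202 ranked regions (20.3%), against 15.9% of all 167303 ranked regions, and AP-1 sequences in 24 (11.9%), against 15.3%. The 2 motifs overlapped in none of the 202. TEAD sequences were present in 4 of 9 regions at CCN1, 4 of 9 at ANKRD1, 7 of 20 at AMOTL2 and 6 of 18 at TEAD4. They were in 3 of 14 at AJUBA, 5 of 27 at WWTR1, 8 of 65 at TEAD1, 2 of 18 at YAP1, 2 of 20 at LATS2 and 0 of 2 at CCN2. The CCN2 and YAP1 start regions count as without a TEAD sequence, since the matches in their promoter windows shown above were not within these 200 bp. AP-1 sequences were in 5 of 18 at YAP1, 3 of 20 at AMOTL2, 8 of 65 at TEAD1, 3 of 27 at WWTR1 and 2 of 18 at TEAD4. They were in 1 of 9 at CCN1, 2 of 20 at LATS2, 0 of 9 at ANKRD1, 0 of 14 at AJUBA and 0 of 2 at CCN2. Among regions that rose with NaBu, 10 of 26 held an AP-1 sequence (38.5%), compared with 2 of 27 that fell (7.41%) and 7 of 87 not called (8.05%). Over all regions the same shares were 21.9%, 11.9% and 15.6%. TEAD sequences were in 7 of 26 (26.9%), 2 of 27 (7.41%) and 20 of 87 (23.0%), and over all regions in 17.1%, 14.8% and 15.4%. With NaPr, AP-1 sequences were in 3 of 9 rising (33.3%), 1 of 10 falling (10.0%) and 15 of 134 uncalled regions (11.2%), against 27.7%, 7.22% and 15.5% over all regions. These are counts of sequence matches in 200 bp and were not tested.

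Of the 27 regions that fell with NaBu, 12 (44.4%) had no peak in any library of the NaPr experiment, compared with 34.2% of the 17953 regions that fell genome-wide. Of the 26 that rose, 4 (15.4%) had none, against 18.3% of 21262. The falling regions were also narrow, with a median length of 459 bp against 832 bp for all falling regions, while the rising ones had a median of 860 bp against 774 bp. Such regions were found beside the starts of TEAD1, TEAD4, AMOTL2, YAP1 and AJUBA and were present only in libraries of the NaBu experiment. The lowest background at a summit was 2.11 to 3.03 tags in libraries of the NaBu experiment and 0.936 to 2.35 in those of the NaPr experiment, and the part of depth in these calls was not tested.

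For the wider pathway, the shares of called regions are given against those of all regions, 9.1% with NaPr and 31.7% with NaBu. At 15 other genes of the Hippo pathway (STK3, STK4, SAV1, LATS1, MOB1A, MOB1B, NF2, WWC1, TAOK1, AMOT, AMOTL1, FRMD6, VGLL4, TEAD2 and TEAD3), 8 regions rose and 9 fell of 165 tested with NaPr (10.3%), and 20 rose and 34 fell of 174 with NaBu (31.0%). With NaBu the most called regions were at the kinase gene STK3, with 4 higher and 4 lower of 26, the TEAD cofactor gene VGLL4, with 4 and 3 of 22, and the kinase gene STK4, with 1 and 5 of 17. With NaPr the adaptor gene WWC1 had most, with 2 higher and 3 lower of 33. At 17 further YAP target genes, 17 regions rose and 13 fell of 225 with NaPr (13.3%), and 46 rose and 34 fell of 239 with NaBu (33.5%). ASAP1 had 9 higher and 2 lower of 31, PTPN14 4 and 7 of 35, and MYOF 6 and 4 of 29 with NaBu, while with NaPr DOCK5 had 5 higher and 1 lower of 18 and CRIM1 2 and 4 of 24. The median change over the Hippo genes was -0.07 points with NaPr and -0.29 with NaBu, and over the target genes 0.92 and 0.77.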

How the data were processed

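ATAC-seq peak lists of 12 SW480 libraries were used, and 8 libraries of the CT26 mouse line were not used here. The study trimmed reads with cutadapt 1.9.1, aligned them with Bowtie2 2.3.1 to GRCh38 and called peaks with MACS2 2.1.0. The lists deposited by the authors give, for each summit, the fold enrichment as a ratio over background and the p-value and q-value as −log10, without read counts, so the differential test on reads used in the study could not be run. Each library was called by itself, and each list ends near 300000 summit lines.

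Lines with the same interval were joined, and intervals of the 12 libraries overlapping by at least 1 bp were merged. The highest −log10 p of a region was converted to a percentile within the library. Regions with a peak in at least 2 of 6 libraries of an experiment were tested with limma 3.58.1 (R 4.3.3; eBayes with trend, two-sided, Benjamini-Hochberg over all regions tested in the experiment). The replicates are described as experimental replicates, and where nothing says that they were separate cultures the p-values measure the spread between these libraries, which may be technical. Tags at each summit were solved from fold and p-value (Poisson, pseudocount 1, within 0.001 of the listed −log10 p, all summits). Counts of regions were compared by exact permutation tests. Chromosome lengths of the reference covered all peak ends. Gene positions came from GENCODE 44, and promoters from RefSeq. The limma step was tested on simulated data.

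The 10 genes, the pathway lists and the motifs were chosen with earlier results of these data known. Named were the start region of each gene and its largest called rise and fall in each experiment. Regions called in both experiments, and the others singled out at YAP1, WWTR1, TEAD1, AMOTL2, ANKRD1 and AJUBA, were named after their values had been seen. The share of identical peak intervals between replicates was at most 0.796%, so no library was counted more than 1 time. Alternatives were ranking by fold enrichment, other presence filters, merging rules and windows, limma without a trend, a replicate block, tag numbers and each library left out.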

Additional observations from a re-analysis of the deposited data

How the results depend on the processing

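Calls with NaPr were less stable than calls with NaBu. The 9 higher and 10 lower regions became 2 and 5 when ranked by fold enrichment, 4 and 5 without the presence filter, 3 and 4 without a variance trend, 15 and 1 on tags scaled by background, and 17 and 19 on tags centred on the median region (chosen after seeing the data). With a replicate block 0 and 0 were called by limma (37 of 153 at an unadjusted p below 0.05), and leaving out libraries gave 0 to 11 higher and 0 to 13 lower, the 0 without untreated replicate 2. The 26 higher regions with NaBu became 12 with a peak required in all 6 libraries, 15 on tags scaled by background, 15 on centred tags and 40 with 50 kb on both sides, and the 27 lower became 17 by fold enrichment. The replicate block gave 22 and 22, and leaving out libraries 20 to 26 and 21 to 25. Same-numbered libraries were not correlated in their deviations (r 0.0049 to 0.0483, all below 0.1), so the numbers were not taken as pairs, and the block changed no other count by over 1.5 times. The rank of the AJUBA start with NaBu (2.62 points) turned to -0.33 log2 on tags scaled by background or centred. Start regions with fewer tags numbered 0 with NaPr when scaled by background (6 centred, 6 with the block), and 3 to 6 with NaPr and 4 to 7 with NaBu when libraries were left out. Of values for called named regions, 51 with NaPr and 11 with NaBu lost their call under an alternative, and none changed direction. The cause of these differences was not tested.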
